A study of Mus musculus with 15 samples.

Results

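The 7 genes described here encode the classical machinery of MHC class II presentation, and they were chosen by symbol from the 44788 gene symbols of the tables: Cd74, H2-Aa, H2-Ab1, H2-Eb1, H2-DMa, H2-DMb1 and Ciita. RNA-Seq was carried out on whole stomachs of C57BL/6 mice at 15 timepoints, with 1 transcriptome per timepoint. The timepoints fall into the 3 phases of the RNA classification: Ph1 from E12.5 to E17.5 (6 embryonic timepoints), Ph2 from E18.5 to week 2 after birth (W2, 6 timepoints that also include days D1, D3 and D5 and week W1) and Ph3 with W3, W6 and W8. No allele or agent was applied in any group. According to the study's methods, several embryonic stomachs went into a sample up to E17.5 and a single stomach afterwards, and stomachs from both sexes were taken up to W2 and from males later, so that Ph3 and male sex cannot be told apart.

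MHC class II molecules are heterodimers of an alpha and a beta chain that hold peptides from endocytosed proteins and show them to CD4+ T cells. In the mouse, H2-Aa and H2-Ab1 encode the chains of I-A, and H2-Eb1 encodes the beta chain of I-E. Cd74, the invariant chain, fills the groove of new class II dimers and guides them to endosomes, where the H2-DM dimer (H2-DMa and H2-DMb1) exchanges the remnant of Cd74 for peptide. Ciita is the coactivator that switches these genes on, through a complex of RFX, CREB and NF-Y factors bound to their promoters. Dendritic cells, macrophages and B cells are the usual carriers of class II, and epithelial cells of the gut can gain it under interferon-gamma.

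Levels are given as FPKM, the number of fragments scaled to the length of the transcript and to the mapped fragments of the library, and all entries of a symbol were added up. Differences between phases were tested with limma on log2(FPKM + 1) over 16902 symbols whose highest FPKM was at least 1, at a Benjamini-Hochberg adjusted p under 0.01. Timepoints within a phase stand in for replicates, so the spread includes change over time, and the phases were drawn from the same transcriptomes. Of the 7 genes, 6 reached this limit, each of them also in at least 1 Ph1 timepoint, and Ciita did not. This holds for the summed entries. On the entry of the chromosome alone, the highest Ph1 values of H2-Eb1, H2-DMa and H2-DMb1 were 0.745, 0.9995 and 0.730 FPKM. By that entry, these genes reached the limit only in later phases. The estimated number of fragments behind a transcriptome lay between 10.6 and 17.0 in units of 1e6, and the 10 highest genes took 11.2% of all FPKM at E14.5 and 53.2% at W6. The median difference of all tested symbols was -0.22 from Ph1 to Ph2 and -0.43 from Ph2 to Ph3, and median-ratio scaling of the samples brought these medians to 0.00045 and -0.016. All 12 stomach epithelium markers were present, with summed levels between 268 FPKM (E12.5) and 198766 FPKM (W6). The spleen stroma markers (Tlx1, Nkx2-5, Nkx3-2) summed to 54.6 FPKM at E12.5 and 22.9 FPKM at E13.5, against 13.47 FPKM at E14.5. Alb, the main plasma protein of liver, stood at 461 FPKM at D1, and the pancreatic acinar markers summed to 148 FPKM at D3 and to 56.1 FPKM at E15.5. The sum of the 7 hepatocyte markers was 1363 FPKM at D1 and higher at W3, W6 and W8 (1501, 2402 and 2228 FPKM), where Apoa1 made up most of it. E12.5 with E13.5, and D1 with D3, were left out as pairs in added fits, and E15.5 alone.

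Each of the 7 genes had its highest level between W2 and W8. Cd74, H2-Aa, H2-Ab1, H2-Eb1 and H2-DMb1 were low in the embryo next to that level and rose further after birth. H2-Ab1 had also risen before birth, as its Ph1 levels spanned 0.408 to 11.1 FPKM. H2-DMa and Ciita were not uniformly low in the embryo. H2-DMa reached 50.3% of its highest level by E16.5, against 53.7% at W8, and Ciita stood at 59.9% of its own at E12.5. Cd74 had 0.939 FPKM at its lowest timepoint, E12.5, and 103 FPKM at its highest, W3, a 109-fold change. On the chromosome entries it was the most abundant of the 7 genes at all 15 timepoints. On summed entries H2-Ab1 stood above it at each timepoint from E15.5 (4.39 against 4.18 FPKM) to D1 (10.8 against 8.41 FPKM). From lowest to highest, H2-Aa changed 121-fold, H2-Ab1 115-fold, H2-Eb1 44.3-fold, H2-DMb1 13.3-fold and H2-DMa 3.58-fold. The folds of H2-Aa and H2-Ab1 are imprecise. Their lowest values, at E12.5, rest on 3.00 and 3.996 fragments of the chromosome entry, with lower confidence bounds of 0. At E13.5, H2-Aa already stood at 3.32% and H2-Ab1 at 5.16% of its highest level. From Ph1 to Ph2, 5 of the 7 genes rose (Cd74, H2-Aa, H2-Ab1, H2-Eb1 and H2-DMb1), where 13.2% of all tested symbols were called higher. From Ph2 to Ph3, H2-Eb1 passed the threshold, where 3.41% of all tested symbols were called higher. In the test across the 3 phases, the 6 tested genes passed, as did 70.8% of all tested symbols. The RNA is from whole organs, so more cells that carry these genes and more RNA per cell cannot be told apart.

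**Figure D1:**
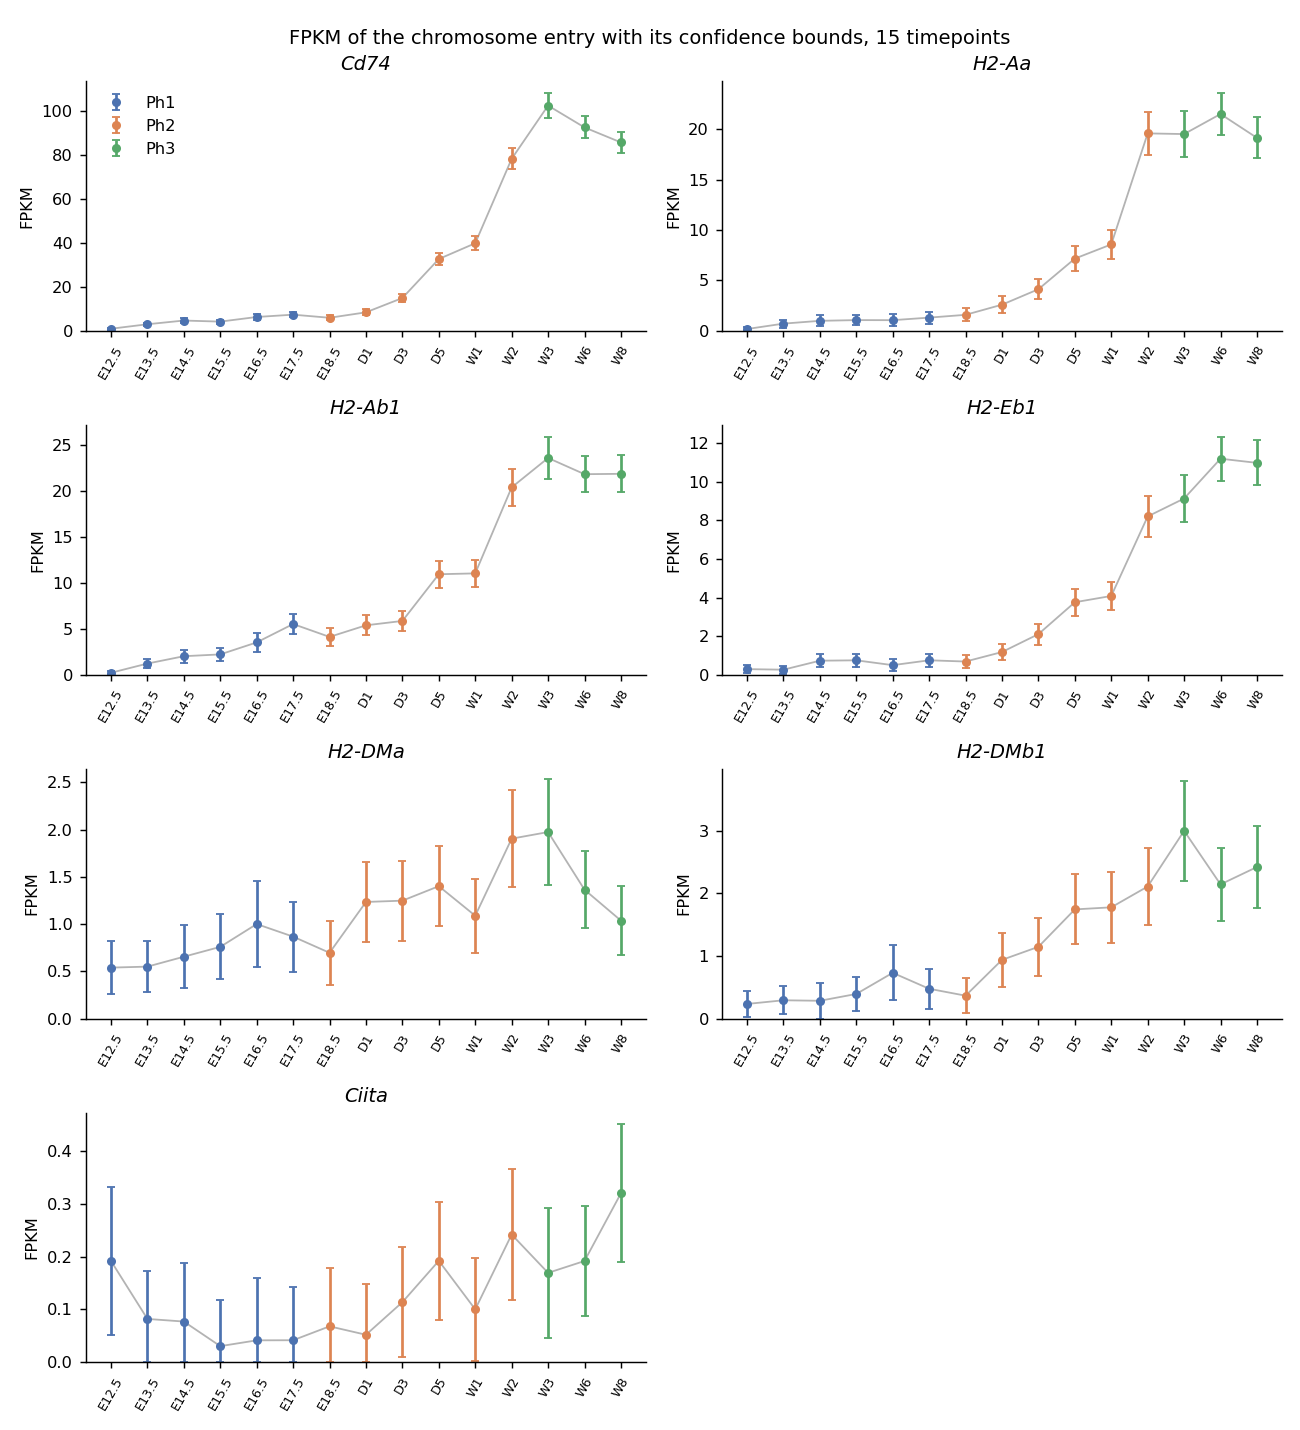
FPKM of the 7 class II presentation genes (y axis, linear, 1 panel per gene with its own scale) at the 15 timepoints (x axis, in order of age), taken from the entry on the chromosome; bars are the deposited confidence bounds and colours mark the phases. Cd74, H2-Aa, H2-Ab1 and H2-Eb1 show a smaller rise in the embryo, climb from D3 and have their highest values from W2 on. H2-DMa is lower again at W8, and Ciita stays under 0.5 FPKM.

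Cd74 had 0.939, 2.98, 4.67, 4.18, 6.29 and 7.35 FPKM from E12.5 to E17.5. It had 5.94, 8.41, 14.9, 32.7, 39.9 and 78.4 FPKM from E18.5 to W2, and 103, 92.7 and 85.8 FPKM at W3, W6 and W8. The level at E18.5 lay within the range of the embryonic timepoints before it, and each of the 3 Ph3 values lay above each value of Ph2. The means were 4.40 ± 2.30 FPKM in Ph1 (SD, n = 6), 30.0 ± 27.3 FPKM in Ph2 (SD, n = 6) and 93.7 ± 8.44 FPKM in Ph3 (SD, n = 3). On the log2(FPKM + 1) scale, which understates the change of low genes, Ph2 minus Ph1 was 2.17 ± 0.52 (SE, limma adjusted p = 0.00259; exact permutation p = 0.00649, two-sided). Ph3 minus Ph2 was 2.101 ± 0.64 (SE, limma adjusted p = 0.0122; exact permutation p = 0.0357, two-sided), which misses the adjusted threshold. Between timepoints next to each other in age, the deposited confidence bounds of Cd74 were apart and higher at the later one in 6 of 14 pairs: E12.5 to E13.5, and each step from D1 to W3. The bounds of W6 overlapped those of the highest timepoint, W3 (96.8 to 108 FPKM), and those of W8 (81.1 to 90.6 FPKM) did not.

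The I-A chains are encoded next to each other on chromosome 17, H2-Ab1 at chr17:34263227-34269418 and H2-Aa at chr17:34282751-34287771 (GRCm38). H2-Aa, the alpha chain, had a lowest, median and highest level of 0.353, 2.04 and 2.61 FPKM in Ph1, and of 3.17, 11.3 and 39.1 FPKM in Ph2. In Ph3 it had 38.9 FPKM at W3, 42.9 FPKM at W6 and 38.2 FPKM at W8. Among the 7 genes, it was the only one with every Ph2 value above every Ph1 value, a pattern that 7.79% of all tested symbols showed. Its Ph3 values overlapped with W2. H2-Aa rose by 2.15 ± 0.43 on the log2 scale from Ph1 to Ph2 (SE, limma adjusted p = 0.000807). The exact permutation p of this step was 0.00216 (two-sided), the smallest that 6 against 6 timepoints can give. The step from Ph2 to Ph3 was 1.80 ± 0.53 (SE, limma adjusted p = 0.0103; exact permutation p = 0.0714).

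H2-Ab1, the beta chain, had a lowest, median and highest level of 0.408, 4.21 and 11.1 FPKM in Ph1 and of 8.29, 16.8 and 40.8 FPKM in Ph2. It had 46.9, 43.6 and 43.7 FPKM at W3, W6 and W8. E17.5 stood above E18.5 and D1, so Ph1 and Ph2 overlapped, while all Ph3 values lay above those of Ph2. H2-Ab1 was 1.88 ± 0.45 higher in Ph2 than in Ph1 on the log2 scale (SE, limma adjusted p = 0.00265; exact permutation p = 0.00649). Ph3 minus Ph2 was 1.37 ± 0.56 (SE, limma adjusted p = 0.0471; exact permutation p = 0.0238). At E17.5, H2-Ab1 had 23.6% of its highest level, whereas H2-Aa had 6.10%, Cd74 7.17% and H2-Eb1 6.88% of theirs.

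H2-Eb1, the I-E beta chain at chr17:34305867-34316674, had a lowest, median and highest level of 0.514, 1.23 and 1.57 FPKM in Ph1 and of 1.36, 5.88 and 16.7 FPKM in Ph2. It had 18.53, 22.7 and 22.4 FPKM at W3, W6 and W8, all above W2. Ph2 minus Ph1 was 1.60 ± 0.38 on the log2 scale (SE, limma adjusted p = 0.00236; exact permutation p = 0.00866). Ph3 minus Ph2 was 1.83 ± 0.47 (SE, limma adjusted p = 0.00447; exact permutation p = 0.0357). This call was lost without W3, W6 or W8, with adjusted p of 0.0107, 0.0238 and 0.0181. The partner of H2-Eb1 in the I-E dimer is the I-E alpha chain, listed as H2-Ea-ps because the H2-b haplotype of C57BL/6 carries an inactive copy. H2-Ea-ps was listed at 0 at all 15 timepoints, while H2-Eb1 rose.

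Cd74, H2-Ab1 and H2-Eb1 thus had every Ph3 value above every Ph2 value, which held for 4.63% of all tested symbols. Every Ph3 value lay above every Ph1 value for 6 of the 7 genes, all but Ciita, and for 12.3% of all tested symbols. Between timepoints next to each other in age, the bounds of H2-Aa, H2-Ab1 and H2-Eb1 were apart from D3 to D5 and from W1 to W2, with later over earlier ratios of 1.74 and 2.28 for H2-Aa, 1.87 and 1.85 for H2-Ab1, and 1.79 and 2.01 for H2-Eb1. H2-Ab1 was also higher at E13.5 than at E12.5 by this measure. Within the 3 Ph3 timepoints, the bounds of each of these 3 genes overlapped with those of its highest timepoint, and for H2-Aa and H2-Ab1 those of W2 did too.

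**Figure D2:**
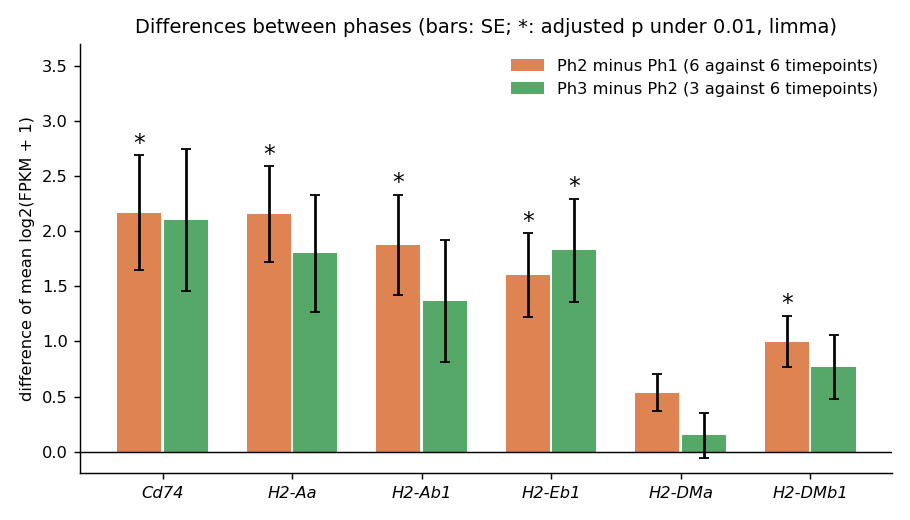
Difference of mean log2(FPKM + 1) between consecutive phases (y axis) for the 6 tested class II genes (x axis), Ph2 minus Ph1 in orange and Ph3 minus Ph2 in green; error bars are the SE of limma and asterisks mark an adjusted p under 0.01. Of the Ph2 bars, 5 carry an asterisk, with H2-DMa at 0.53 without one, and of the Ph3 bars only that of H2-Eb1 does.

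H2-DMa and H2-DMb1, the chains of the peptide exchange dimer, had lower highest levels and smaller changes than the other H2 genes above. On summed entries, the Ph1 mean of H2-DMa (1.62 FPKM) lay above that of H2-Eb1 (1.10 FPKM). On the chromosome entry H2-DMa was also above H2-Eb1 at each Ph1 timepoint but E14.5 (0.654 against 0.724 FPKM). H2-DMb1 had a lowest, median and highest level of 0.464, 0.688 and 1.46 FPKM in Ph1, of 0.729, 3.03 and 4.48 FPKM in Ph2, and had 6.17, 4.26 and 4.90 FPKM at W3, W6 and W8. It rose by 0.999 ± 0.24 on the log2 scale from Ph1 to Ph2 (SE, limma adjusted p = 0.00219; exact permutation p = 0.00866). Only E18.5 of the Ph2 timepoints lay within the Ph1 range. The later step was 0.77 ± 0.29 (SE, limma adjusted p = 0.0331; exact permutation p = 0.0714).

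H2-DMa had a lowest, median and highest level of 1.23, 1.51 and 2.21 FPKM in Ph1 and of 1.51, 2.85 and 4.39 FPKM in Ph2, and had 4.36, 3.06 and 2.36 FPKM at W3, W6 and W8. Ph2 minus Ph1 was 0.53 ± 0.17 (SE, limma adjusted p = 0.0115; exact permutation p = 0.0130), just outside the adjusted threshold. Ph3 minus Ph2 was 0.15 ± 0.20 (SE, limma adjusted p = 0.540; exact permutation p = 0.619). At W8 H2-DMa had 53.7% of its highest level, and H2-DMb1 had 79.4% of its own. No pair of timepoints next to each other in age had bounds apart for either gene, with 15.1 to 54.8 fragments behind H2-DMa and 3.88 to 55.9 behind H2-DMb1.

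Ciita, the coactivator (chr16:10480015-10527564), had the lowest chromosome entry of the 7 genes at each timepoint but E12.5, where H2-Aa was lower (0.177 FPKM). It had 0.192 FPKM at E12.5, between 0.0306 and 0.0821 FPKM at the other Ph1 timepoints, and 0.0681, 0.0522, 0.114, 0.192, 0.1002 and 0.242 FPKM from E18.5 to W2. At W3, W6 and W8 it had 0.169, 0.192 and 0.320 FPKM. Between 0.492 and 24.2 fragments stood behind these values, and fewer than 3 at 6 of the 15 timepoints. Exact permutation tests, two-sided on the log2 scale, gave p = 0.206 for Ph1 against Ph2 and p = 0.119 for Ph2 against Ph3, where the smallest p possible is 0.0119. The later step gave p = 0.0238 with median-ratio scaling and p = 0.0119 with quantile normalization in the same exact test, so whether it passes depends on the scaling. The bounds of W8 overlapped with those of 7 other timepoints, E12.5 among them.

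Levels of different genes were compared on the entry of the chromosome alone, because the 5 H2 genes are each listed 4 times, on chromosome 17 and on 3 alternate contigs. On 1 of the contigs the FPKM was within 1% of that of the chromosome in 62 of 75 values, so that a fragment may have been counted in both and the summed levels of the H2 genes are then too high next to those of Cd74 and Ciita. If fragments were instead divided between these entries, the chromosome entry is too low for the H2 genes, and Cd74 over H2-Aa is too high. Which of these holds was not settled. The other 2 contigs together held at most 17.1% of a sum (H2-DMa). On the chromosome entry and per length, Cd74 was 4.96 ± 0.81 times H2-Aa in Ph1 (SD, n = 6), 3.98 ± 0.55 times in Ph2 (SD, n = 6) and 4.69 ± 0.51 times in Ph3 (SD, n = 3). These ranges overlapped, as Cd74 and H2-Aa changed nearly in step.

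The ratio of the I-A chains moved more. H2-Ab1 over H2-Aa was 1.70 at E13.5, 2.03 at E14.5, 2.08 at E15.5, 3.34 at E16.5 and 4.23 at E17.5, with a 95% counting interval of 2.58 to 6.92 at E17.5. It was 2.60 at E18.5, 2.08 at D1, 1.42 at D3, 1.53 at D5, 1.29 at W1 and 1.04 at W2 (0.903 to 1.21). At W3, W6 and W8 it was 1.21, 1.02 and 1.15, so the chains were close to equal per length from W2 on. Behind the ratio at E17.5 stood 94.5 fragments of H2-Ab1 and 19.0 of H2-Aa, and at E12.5 only 3.996 and 3.00, with an interval of 0.258 to 5.16 that spans most later values. The ratio H2-DMb1 over H2-DMa went the other way, from between 0.431 and 0.730 in Ph1 to between 1.52 and 2.33 in Ph3. Intervals assume Poisson bounds and cover counting error only, and these ratios were read after the values were seen, so no test is given.

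**Figure D3:**
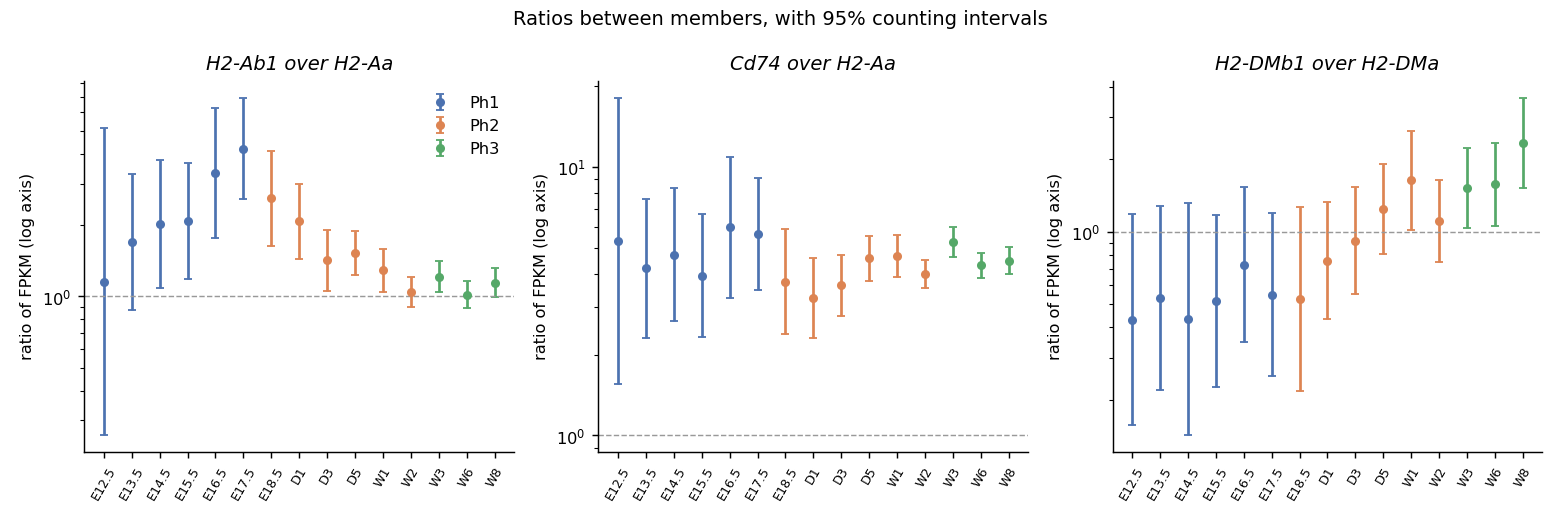
Ratio of the FPKM of 2 class II genes (y axis, log scale) at the 15 timepoints (x axis) on the chromosome entry, with 95% counting intervals as bars and phases in colour; the dashed line marks a ratio of 1. H2-Ab1 over H2-Aa peaks at 4.23 at E17.5 and lies between 1.02 and 1.21 from W2 on, Cd74 over H2-Aa stays between 3.25 and 5.97, and H2-DMb1 over H2-DMa is above 1 from D5 on.

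Over the 15 timepoints, Pearson's r between the log2 values of Cd74 and H2-Aa was 0.994, that of Cd74 and H2-Eb1 0.982 and that of Cd74 and H2-DMb1 0.969. H2-DMa gave r between 0.799 and 0.895 with the other tested genes, and Ciita between 0.437 and 0.739 with the 6 others. The points share a library each and a common trend with age, so these values describe the profiles and carry no p.

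Class II promoters are known for an X box, bound by RFX and CREB factors, followed by a Y box, an inverted CCAAT element bound by NF-Y. RefSeq promoter windows of GRCm38.p6, from 250 bases before to 50 after the start, were matched by symbol for 4 of the 7 genes (H2-Aa, H2-Eb1, H2-DMa and H2-DMb1). The windows of the 3 genes among them that rose from Ph1 to Ph2 are printed 5′ to 3′ on the strand of the gene, with matches to ACNGATG (X box) and TGATTGG (Y box) in capitals. They lie at chr17:34287774-34288073 (minus strand) for H2-Aa, at chr17:34305617-34305916 (plus strand) for H2-Eb1 and at chr17:34152941-34153240 (plus strand) for H2-DMb1.
H2-Aa: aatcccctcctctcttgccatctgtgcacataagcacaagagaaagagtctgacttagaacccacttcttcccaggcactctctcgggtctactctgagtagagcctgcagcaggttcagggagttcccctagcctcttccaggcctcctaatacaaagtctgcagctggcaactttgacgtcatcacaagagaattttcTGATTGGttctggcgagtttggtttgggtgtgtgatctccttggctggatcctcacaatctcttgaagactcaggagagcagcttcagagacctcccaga
H2-Eb1: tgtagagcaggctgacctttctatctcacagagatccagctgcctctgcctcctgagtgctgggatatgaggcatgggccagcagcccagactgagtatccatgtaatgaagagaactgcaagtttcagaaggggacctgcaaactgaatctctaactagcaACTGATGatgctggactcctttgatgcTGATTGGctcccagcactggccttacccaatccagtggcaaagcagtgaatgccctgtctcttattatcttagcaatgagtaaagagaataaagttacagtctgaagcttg
H2-DMb1: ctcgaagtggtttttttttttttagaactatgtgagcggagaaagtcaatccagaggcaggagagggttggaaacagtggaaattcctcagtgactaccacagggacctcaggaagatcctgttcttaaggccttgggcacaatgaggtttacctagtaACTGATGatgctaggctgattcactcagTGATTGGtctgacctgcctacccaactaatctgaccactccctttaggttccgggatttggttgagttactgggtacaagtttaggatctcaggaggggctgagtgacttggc

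The Y box letters began 50 bases before the start in H2-Aa, 61 in H2-Eb1 and 63 in H2-DMb1. The X box letters began 88 bases before the start in H2-Eb1 and 91 in H2-DMb1, which puts them 27 and 28 bases before those of the Y box. H2-Aa had the X box letters only on the opposite strand, 232 bases before the start. ACNGATG was the only X box pattern searched, so an X box with other letters would have been missed. Whether H2-Aa has an X box is therefore not answered here. Neither of the 2 windows of H2-DMa held the X box or Y box letters on either strand, and 1 of them held the core ATTGG, which is part of the Y box letters, 198 bases before its start. Among the 32851 windows of 300 bases, 9.85% held the X box letters and 7.82% the Y box letters on either strand, and 37.4% held the core. An X box followed by a Y box on the same strand, with first bases 20 to 35 apart, stood in 9 windows (0.0274%), and 4 of these belong to class II genes, H2-Eb1, H2-DMb1, H2-Eb2 and H2-DMb2. This spacing was chosen after the windows had been read. A match is a description of letters and not a bound site.

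The other genes of the class II locus stayed low. H2-DMb2, the second beta chain gene of H2-DM, reached 1.37 FPKM and was the only 1 of the 5 to be tested, with differences of 0.34 and 0.11 that did not pass. H2-Oa and H2-Ob, the chains of the inhibitor of H2-DM that B cells carry, were at most 0.710 and 0.373 FPKM, and H2-Eb2 was at most 0.118 FPKM.

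Rfx5, Rfxap, Rfxank, Nfya, Nfyb, Nfyc, Creb1 and the regulators Spi1, Irf1, Irf4 and Irf8 make up the list of class II transcription factors. Of these 11 genes, 10 were tested: from Ph1 to Ph2, 1 was called higher and 4 lower, and from Ph2 to Ph3, 1 was called higher and 7 lower. Of all tested symbols, 13.2% were called higher and 35.1% lower in the earlier step, and 3.41% higher and 37.4% lower in the later one. Nfya, a subunit of NF-Y, fell by 1.04 on the log2 scale from Ph1 to Ph2 and by 0.87 from Ph2 to Ph3, with means of 23.7 ± 6.00, 10.8 ± 1.91 and 5.45 ± 1.11 FPKM in Ph1, Ph2 and Ph3 (SD, n = 6, 6 and 3). Nfyb fell by 0.81 and 0.80, Nfyc by 0.49 and 0.51 and Creb1 by 0.66 and 0.68. Irf1, the gene called higher in the earlier step, rose by 0.39 (limma adjusted p = 0.00535) and differed by 0.010 in the later one. Irf8 differed by 0.36 (limma adjusted p = 0.0243) and then fell by 1.004. Of the RFX subunits, Rfx5 differed by -0.53 (limma adjusted p = 0.0125) and then fell by 0.95, Rfxap fell by 0.58 from Ph2 to Ph3, and Rfxank rose by 0.49 in that step, a call that was kept in 12 of 30 alternatives. The median of the 10 tested genes was -0.38 and -0.63, beside -0.22 and -0.43 for all tested symbols. Under median-ratio scaling it was -0.104 and -0.0996, with 2 higher and 3 lower and then 2 higher and 0 lower, and Nfyc from Ph2 to Ph3 turned to 0.074. With that scaling, 3385 of all 16902 tested symbols were called higher and 3158 lower in the earlier step, and 2585 and 1716 in the later one.

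In the endosomal processing list, 8 of 9 genes were tested, with 3 higher and 0 lower from Ph1 to Ph2 and 0 higher and 2 lower from Ph2 to Ph3, beside 13.2% higher and 35.1% lower, then 3.41% higher and 37.4% lower, of all tested symbols. With median-ratio scaling 6 were higher and 0 lower, then 2 higher and 0 lower. Of all 16902 tested symbols, that scaling called 3385 higher and 3158 lower, then 2585 higher and 1716 lower. Ctss, the cathepsin that trims Cd74 in antigen-presenting cells, rose by 0.95, with 12.46 ± 4.15, 24.3 ± 3.73 and 19.6 ± 7.57 FPKM in Ph1, Ph2 and Ph3 (SD, n = 6, 6 and 3). Its later difference of -0.35 did not pass (limma adjusted p = 0.238) and turned positive under median-ratio and quantile scaling. Ifi30, the thiol reductase of endosomes, rose by 1.10 from Ph1 to Ph2 and the cathepsin Ctsb by 0.82. The proteases Ctsl and Lgmn fell by 0.76 and 0.50 from Ph2 to Ph3, and Lgmn turned to 0.093 under median-ratio scaling. The list's median was 0.55 and then -0.17.

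MHC class I presentation shows peptides from the cytosol to CD8+ T cells and is partly driven by the same signals. Of 16 genes, 15 were tested: 9 rose and 0 fell from Ph1 to Ph2 (13.2% and 35.1% of all tested symbols), with a median of 0.83, and from Ph2 to Ph3 0 rose and 1 fell (3.41% and 37.4%), with a median of -0.077 that was 0.53 under median-ratio scaling. The heavy chain gene H2-K1 rose by 2.45 from Ph1 to Ph2 and H2-D1 by 2.002, B2m, the light chain, by 0.83, the peptide transporter subunit Tap2 by 1.54 and the immunoproteasome subunit Psmb8 by 1.22. The tested class II genes had medians of 1.74 and 1.58 in these steps, and of 1.90 and 2.18 under median-ratio scaling. Whether the 2 lists differ was not tested. H2-K1 and H2-D1 are close copies, as are H2-DMb1 and H2-DMb2, and counting could have split the fragments they share. The comparisons share the Ph2 timepoints.

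Ifng, the gene of interferon-gamma, was listed at 0 at all 15 timepoints. Of the 18 genes of its pathway and targets, 16 were tested, of which 11 rose and 2 fell from Ph1 to Ph2 (13.2% and 35.1% of all tested symbols), and 0 rose and 2 fell from Ph2 to Ph3 (3.41% and 37.4%). The later step had 4 higher and 1 lower with median-ratio scaling, and 3 higher and 0 lower with quantile normalization. Of all 16902 tested symbols, 2585 were higher and 1716 lower in that step with the first scaling, and 1692 and 1331 with the second. The receptor chain gene Ifngr1 rose by 0.71 from Ph1 to Ph2, while Socs1, a feedback inhibitor, fell by 0.82 and then by 1.36. Their summed level lay between 112 and 122 FPKM in Ph1, between 127 and 155 FPKM in Ph2 and between 126 and 153 FPKM in Ph3. Of the 7 co-stimulation genes, 5 were tested, with 1 higher and 2 lower from Ph1 to Ph2, and 0 higher and 2 lower from Ph2 to Ph3, beside the same shares of all tested symbols. With median-ratio scaling 2 were higher and 0 lower, then 0 higher and 0 lower, so that none of the falls was kept. That scaling called 3385 of all tested symbols higher and 3158 lower, then 2585 higher and 1716 lower. Icosl, the co-stimulation gene called higher, rose by 0.88 from Ph1 to Ph2 (limma adjusted p = 0.00303) and differed by 0.071 in the later step. Cd86, a ligand of CD28, differed by 0.31 from Ph1 to Ph2, which did not pass, and fell by 0.58 from Ph2 to Ph3. Cd40, a receptor that T cells engage, fell by 0.52 and 0.82, calls that were kept in 14 and 25 of 30 alternatives.

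**Figure D4:**
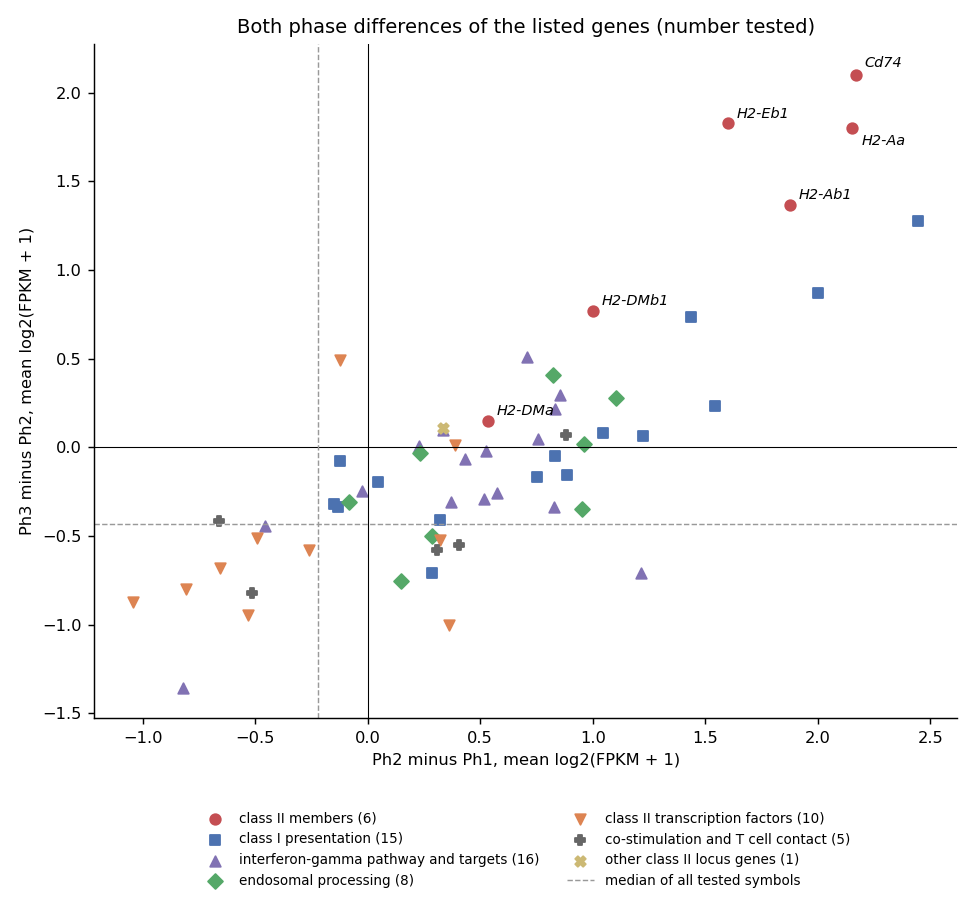
Each tested gene of the class II, class I, interferon-gamma, endosomal, transcription factor, co-stimulation and other class II locus lists, by its difference from Ph1 to Ph2 (x axis) and from Ph2 to Ph3 (y axis), both of mean log2(FPKM + 1); dashed lines mark the medians of all tested symbols, -0.22 and -0.43. The differences share the Ph2 timepoints. Cd74 lies at 2.17 and 2.101, whereas the transcription factors Nfya and Nfyb are negative on both axes.

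The 11 macrophage markers summed to between 88.1 and 170 FPKM in Ph1, 168 and 243 FPKM in Ph2, and 275, 191 and 131 FPKM at W3, W6 and W8. From Ph1 to Ph2, 4 of the 11 rose and 0 fell (13.2% and 35.1% of all tested symbols), and from Ph2 to Ph3, 1 rose and 5 fell (3.41% and 37.4%). The rises in the earlier step numbered 6 with median-ratio scaling and with quantile normalization and 1 with a fixed sum. The falls in the later step numbered 2, 0 and 7 under these scalings. In the same order, 3385, 2813 and 1764 of all 16902 tested symbols rose in the earlier step, and 1716, 1331 and 9334 fell in the later one. The 6 pan-leukocyte markers summed to between 36.7 and 48.2 FPKM in Ph1, 37.1 and 57.5 FPKM in Ph2 and 23.5 and 65.9 FPKM in Ph3, and none passed in either step. With median-ratio scaling, 4 of the 6 were called higher from Ph1 to Ph2 and 1 from Ph2 to Ph3, and with a fixed sum 3 were called lower in the later step. Of all tested symbols, 3385 and then 2585 were called higher with median-ratio scaling, and 9334 lower in the later step with a fixed sum. Csf1r, the receptor for the macrophage growth factor and 1 of the 5 macrophage markers that fell, had 10.5 ± 1.69, 16.3 ± 2.64 and 7.15 ± 3.42 FPKM in Ph1, Ph2 and Ph3 (SD, n = 6, 6 and 3). Lyz2, the macrophage marker that rose, was 1.31 higher in Ph3 than in Ph2 on the log2 scale (limma adjusted p = 0.00339). C1qa and C1qb differed by -0.048 and -0.20 in that step and did not pass. The summed class II level on chromosome entries was 0.0674 ± 0.0241 of the macrophage sum in Ph1 (SD, n = 6), 0.256 ± 0.205 in Ph2 (SD, n = 6) and 0.818 ± 0.251 in Ph3 (SD, n = 3). The ranges were 0.0291 to 0.0957, 0.0801 to 0.622 and 0.583 to 1.08, so that Ph2 overlapped with both others and Ph1 with Ph3 did not.

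Of the 9 dendritic cell markers, 3 were tested and 2 fell from Ph1 to Ph2, Batf3 and Zbtb46, where 35.1% of all tested symbols were called lower. Itgax, the integrin CD11c of dendritic cells, had 0 to 0.160 FPKM in Ph1, 0.141 to 1.15 FPKM in Ph2 and 0.292 to 1.02 FPKM in Ph3 (Ph2 minus Ph1 0.46, limma adjusted p = 0.0108). Of 8 B cell markers, only Cd79b reached 1 FPKM, and the summed level was 1.31 to 2.08 FPKM in Ph1, 1.24 to 3.29 FPKM in Ph2 and 0.585 to 1.01 FPKM in Ph3. The defining B cell genes Cd79a, Ms4a1 and Pax5 were at most 0.405, 0.207 and 0.0530 FPKM. The 7 T cell markers summed to 1.82 to 4.56 FPKM in Ph1, 1.94 to 2.92 FPKM in Ph2 and 1.46 to 2.38 FPKM in Ph3. Of the 2 tested, Cd4 rose and Lck fell from Ph1 to Ph2 (13.2% and 35.1% of all tested symbols). The part of each cell type in the class II levels was not tested.

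**Figure D5:**
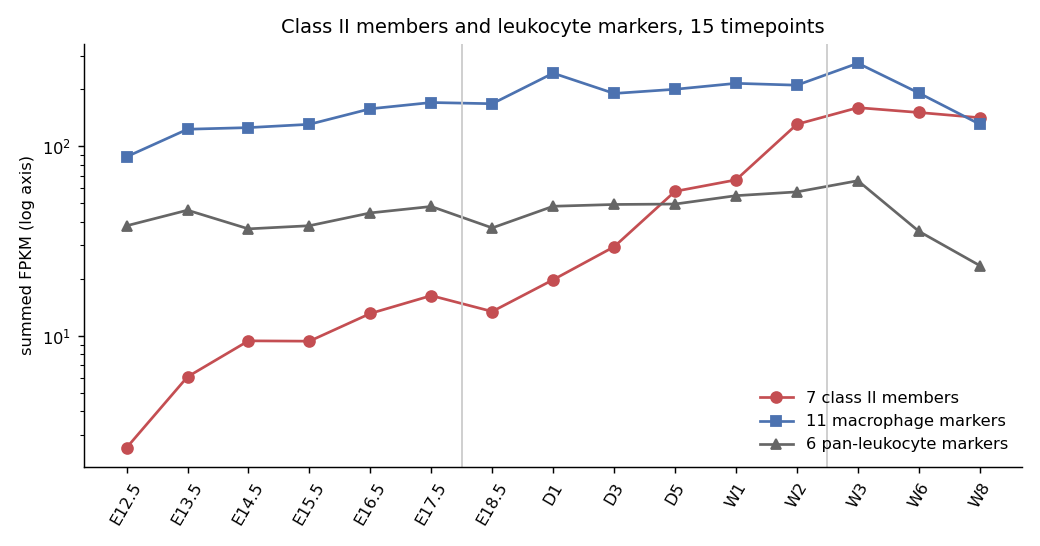
Summed FPKM (y axis, log scale) of the 7 class II genes on their chromosome entries, of 11 macrophage markers and of 6 pan-leukocyte markers at the 15 timepoints (x axis); vertical lines divide Ph1, Ph2 and Ph3. The class II sum is 2.57 FPKM at E12.5 and reaches 160 FPKM, while the pan-leukocyte sum stays between 23.5 and 65.9 FPKM.

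In the fit without E12.5 and E13.5, chosen after seeing the data, H2-Aa alone of the 7 genes was called higher from Ph1 to Ph2; Cd74, H2-Ab1, H2-Eb1 and H2-DMb1 had adjusted p of 0.0205, 0.0137, 0.0198 and 0.0177. In the fit without D1 and D3, H2-Eb1 was not called from Ph2 to Ph3 (1.54, limma adjusted p = 0.0218). The direction was upwards in all these cases.

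By likeness of profile over the 15 timepoints, the 10 symbols closest to the mean standardized profile of the 6 tested class II genes were Efcab4a, Cwh43, Adm, Clybl, Atp2a3, Prrg2, Mlkl, Ephx4, Ifi27l2b and Gm8798, with Pearson's r from 0.971 to 0.985 on log2(FPKM + 1). None of them is on the pathway lists used here. Atp2a3, a calcium pump of the endoplasmic reticulum, had 14.7 ± 4.57, 41.0 ± 19.0 and 82.7 ± 7.37 FPKM in Ph1, Ph2 and Ph3 (SD, n = 6, 6 and 3). Mlkl, the effector of necroptosis, had 0.902 ± 0.307, 3.71 ± 1.59 and 7.33 ± 1.29 FPKM. Adm, the peptide hormone adrenomedullin, had 1.15 ± 0.59, 4.05 ± 2.04 and 8.34 ± 2.07 FPKM. Of the other 16896 symbols compared, 569 (3.37%) had r over 0.9, so a profile of this kind was common. With Spearman's rho 1 of the 10 symbols was among the closest 10, and with median-ratio scaling 5 were.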

How the data were processed

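Whole-stomach RNA of 15 timepoints was measured, with each sample placed by its age label. The authors deposited a table per timepoint that gives each gene entry an FPKM and its lower and upper confidence bound. According to the study's methods, reads were filtered with FastQC, mapped to GRCm38.p2 with HISAT2 and quantified with StringTie and a GENCODE annotation. The submitters' processing notes name Bowtie 0.12.2 and FastQC, whereas the tables are laid out like Cufflinks output and carry RefSeq-style gene numbers, so these sources differ. The methods name liver as the source of RNA, whereas the labels name stomach. Positions count from 1.

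Entries of a symbol were summed. Symbols with a highest FPKM of at least 1 (16902 of 44788) were fitted on log2(FPKM + 1) with limma 3.58.1 in R 4.3.3, in 1 fit over Ph1, Ph2 and Ph3 with no covariate, with Benjamini-Hochberg adjustment and a threshold of 0.01. Single genes were compared with exact two-sided permutation tests (924 splits of 6 against 6 timepoints, 84 of 6 against 3), in Python 3.11.15 with NumPy 2.4.6 and pandas 2.3.3. The test across genes was checked on simulated data with 200 shifted genes. Depth is not stated in the tables: the fragments behind an entry were estimated from its bounds as if these were Poisson, and such intervals cover counting error only.

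The genes named are the 7 members, genes of the pathway lists with a role in class II presentation, and the 10 symbols with the closest profile. The members and lists were chosen with earlier results of these data known. Promoter windows are RefSeq's, on GRCm38.p6, and 3 members (Cd74, H2-Ab1 and Ciita) have none printed. The markers Adgre1 and Jchain were read under the older symbols Emr1 and Igj. Alternatives were other pseudocounts (0.1, 0.01), limits (0.5, 2, none), scalings, entries, phase assignments and tests, and leaving out each timepoint. Some results for single genes are not reported here.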

Additional observations from a re-analysis of the deposited data

Results flagged for a closer look

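In groups of 6 timepoints, a value was singled out where its gap to the nearest other, divided by the range of the group, was above Dixon's 95% critical value. Of 64 groups examined, 6 held such a value, and chance gives about 1 in 20 groups. Ciita at E12.5 (0.192 FPKM) stood above the other Ph1 timepoints, which had 0.0306 to 0.0821 FPKM, with 7.47 fragments behind it, and spleen stroma markers were also highest at E12.5. H2-DMb2 at E16.5 (0.656 FPKM) stood above the other Ph1 timepoints (0 to 0.208 FPKM). Lgmn was low at E12.5 (25.1 FPKM, others 31.4 to 34.6) within Ph1 and low at E18.5 (32.9 FPKM, others 37.7 to 40.2) within Ph2. At E18.5, the first timepoint of Ph2, Nfya was high (14.4 FPKM, others 9.42 to 11.1), as was Cd86 (1.92 FPKM, others 0.909 to 1.27). What sets these values apart was not tested.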

How the results depend on the processing

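From Ph1 to Ph2, all 30 alternatives kept the upward direction of the 6 tested class II genes. H2-Aa passed in all of them, Cd74, H2-Ab1, H2-Eb1 and H2-DMb1 in 29 each (not without E12.5 and E13.5, which left 1 gene called), and H2-DMa in 6. With single timepoints left out, 5 to 6 were called. From Ph2 to Ph3, the number called moved from 1 to 0 with a pseudocount of 0.1 or 0.01, with no filter and without D1 and D3, to 2 with an FPKM limit of 2 and with the first entry of a symbol, to 3 with quantile normalization and with the protein phases (E17.5 in Ph2), and to 4 with median-ratio scaling. With single timepoints left out it was 0 to 3. H2-Eb1 passed in 23 of 30 alternatives, H2-Aa in 6, Cd74 in 4, H2-DMb1 in 2, H2-DMa in 1 and H2-Ab1 in 0. In the exact permutation tests at an unadjusted 0.05, 6 of the 7 genes passed from Ph1 to Ph2 and 3 from Ph2 to Ph3. These tests were run on the 7 genes only, so there is no share of all symbols to set beside the counts. In the limma test across phases, 70.8% of all tested symbols passed. The exact count from Ph2 to Ph3 was 7 with median-ratio scaling and with quantile normalization, 0 with a fixed sum, with the split at birth and weaning (E18.5 in the embryonic group) and without D1 and D3, and 0 to 5 without single timepoints. The causes were not tested.

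Over all symbols, median-ratio scaling gave 3385 higher and 3158 lower from Ph1 to Ph2 (2229 and 5935 as reported), and 2585 higher and 1716 lower from Ph2 to Ph3 (577 and 6328 as reported). Quantile normalization gave 1692 higher and 1331 lower in the later step, a fixed sum 250 higher, and leaving out D1 and D3 351 higher. Without E12.5 and E13.5, 1224 were higher and 3649 lower in the earlier step. Without single timepoints, the test across phases called 10657 to 12326 symbols, the earlier step 1736 to 2590 higher and 5011 to 6444 lower, and the later step 306 to 740 higher and 2842 to 6870 lower.

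From Ph2 to Ph3, H2-DMa turned to -0.13 with a fixed sum and to -0.030 without W3, H2-DMb2 to -0.069 without D1 and D3 and to -0.12 without W3, Ctss to 0.24 with median-ratio scaling and 0.028 with quantile normalization, Lgmn to 0.093 and Nfyc to 0.074 with median-ratio scaling. None of these reversed values passed. Without single timepoints, H2-DMa ranged from -0.030 to 0.31 and H2-DMb2 from -0.12 to 0.26. No paired analysis was possible, because whole stomachs were taken and no animal was measured at more than 1 timepoint. Ciita rests on the fewest fragments. Confidence bounds do not cover differences between animals, and with 1 transcriptome per timepoint neither does any other value here.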
